A study of Mus musculus with 9 samples.

Results

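The clones described here were the largest T cell clones of 3 tumour-draining lymph nodes, set apart by whether any cell of the same clone was read in the tumour of the same mouse. A clone was a beta chain with 1 V segment, 1 CDR3 nucleotide sequence and 1 J segment. In each node the 500 clones of highest count were taken, and clones tied at the last count were kept. This gave 500 clones for the anti-CD4 node, 519 for the control-titled and 526 for the anti-PD-L1-titled one, which is 1545 of the 55032 clones listed in the 3 nodes. Of these, 178, 64 and 76 had at least 1 tumour cell, and 322, 455 and 450 had none. The clones just inside the limit had 328, 66 and 62 counts, and the next clones below it had 326, 65 and 61.

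All mice were C57BL/6 females aged 8 weeks with a subcutaneous B16F10 tumour, a transplanted melanoma line, and were examined on day 14. One mouse received 200 µg of anti-CD4 antibody (clone GK1.5), which depletes CD4+ T cells, on days 5 and 9, another anti-PD-L1 antibody (clone 10F.9G2) by the same schedule, and another was untreated. The sorted cells were TCRbeta+ CD8+ T cells that an intravenous antibody given 3 min before death had not stained, and the node cells were also CD44high, a mark of T cells that have met antigen. The beta chains of the nodes were read in bulk, and the tumour cells one by one on BD Rhapsody, a microwell system, with a targeted immune gene panel and both receptor chains.

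The design has limits that touch every result. There was 1 mouse per treatment and the anti-CD4 tumour had a cartridge to itself, so treatment, animal and cartridge cannot be told apart. Both other tumours shared the second cartridge under sample tags 1 and 2, and which tag belongs to which node was set here by clone sharing, so the share of clones found in the matched tumour is a description. The titles and the treatment labels of these nodes contradict each other: the node titled control carries the label anti-PDL1 mAb and the node titled anti-PD-L1 the label Untreated. The titles are used below, as names only. The node count of a clone is a read count, in which more cells and more receptor RNA per cell cannot be told apart.

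A T cell's beta chain is assembled once, from a V, a D and a J segment with bases lost and added at the joins, and is passed on to all descendants, so cells with the same beta chain nucleotides are usually 1 clone. The CDR3 spans those joins and is the stretch that lies over the peptide in the MHC groove. In cancer, CD8+ T cells are primed in the draining node, divide there and travel to the tumour. There, cells that meet antigen for long can move from a precursor state, in which the transcription factor TCF-1 (Tcf7) and the receptor PD-1 (Pdcd1) are both present, to a terminal state with PD-1 and TIM-3 (Havcr2).

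The following CDR3s, printed from the conserved cysteine codon near the end of V to the J phenylalanine codon, give examples of clones of high node count with no tumour cell beside clones of many tumour cells. For each mouse the highest clone without a tumour cell is given first and the clone with most tumour cells second, and the last line is the second largest tumour clone of the anti-PD-L1 mouse. Capitals mark the bases between the end of V and the start of J.
anti-CD4 node, rank 1, TRBV14 and TRBJ2-1: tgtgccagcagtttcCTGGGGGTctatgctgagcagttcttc
anti-CD4 node, rank 101, TRBV16 and TRBJ2-5: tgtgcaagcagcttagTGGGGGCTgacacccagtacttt
control-titled node, rank 4, TRBV29 and TRBJ2-7: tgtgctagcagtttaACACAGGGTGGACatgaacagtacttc
control-titled node, rank 8, TRBV12-1 and TRBJ2-5: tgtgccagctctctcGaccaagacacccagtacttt
anti-PD-L1-titled node, rank 1, TRBV1 and TRBJ2-1: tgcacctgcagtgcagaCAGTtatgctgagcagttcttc
anti-PD-L1-titled node, rank 6, TRBV5 and TRBJ1-1: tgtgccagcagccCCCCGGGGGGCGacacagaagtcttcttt
anti-PD-L1-titled node, rank 233, TRBV19 and TRBJ1-1: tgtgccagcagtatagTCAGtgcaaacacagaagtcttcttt

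The first clone of the anti-CD4 node (TRBV14) had 11166 counts, 0.887% of the node, and 0 of 12304 tumour cells, which allows a share of up to 0.0244%. The clone at rank 101 (TRBV16) had 1216 counts and 2132 tumour cells, 17.3% of that tumour (95% exact Clopper-Pearson interval 16.7 to 18.0%). In the control-titled mouse the rank 4 clone (TRBV29) had 766 counts and 0 of 6412 tumour cells, which allows up to 0.0468%. The rank 8 clone (TRBV12-1), whose V and J ends are separated by 1 base, had 419 counts and 1485 tumour cells, 23.2% of the tumour (22.1 to 24.2%). It was also listed in another node and had 57 cells in the other tumours. The first clone of the anti-PD-L1-titled node (TRBV1) had 824 counts, 0 of 11310 cells in its own tumour (up to 0.0265%) and 1 cell in another. The rank 6 clone (TRBV5) had 453 counts and 450 tumour cells, 3.98% (3.63 to 4.36%). The rank 233 clone (TRBV19) had 78 counts and 323 tumour cells, 2.86% (2.56 to 3.18%). Intervals and upper limits here and below cover counting error only.

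Depth differed between nodes and bounds what could be matched. The anti-CD4 node had 1259463 counts in 29791 clones, the control-titled node 326019 in 11868 and the anti-PD-L1-titled node 350459 in 13373, and no clone under 10 counts was listed. The largest clones held 37.4%, 16.2% and 14.8% of the node counts, and those with tumour cells held 42.0%, 22.5% and 24.6% of the counts of the largest clones. In the tumours 12304, 6412 and 11310 cells with a beta chain were used, at a median of 21194, 17629.5 and 13932 counts per cell. Cell numbers are reused between cartridges: 252 occurred in both, 2.05% of the anti-CD4 cells. Cd8a was read in 98.0%, 79.6% and 97.2% of the tumour cells of the largest clones and Cd8b1 in 99.4%, 93.8% and 97.9%, whereas Cd4 was read in 0.3%, 0.1% and 0.3%.

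Tumour cells were found for 35.6% of the largest clones of the anti-CD4 node (31.4 to 40.0%), 12.3% in the control-titled mouse (9.63 to 15.5%) and 14.4% in the anti-PD-L1-titled mouse (11.6 to 17.8%). In the reverse direction, these clones supplied 5385 cells or 43.8% of the anti-CD4 tumour (42.9 to 44.6%), 3215 cells or 50.1% of the control-titled tumour (48.9 to 51.4%) and 2336 cells or 20.7% of the anti-PD-L1-titled tumour (19.9 to 21.4%). The anti-CD4 node thus had the highest share of clones with a tumour cell. With 1 mouse per group no test of that order was possible.

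The same clones were looked up in the tumours of the other mice as a background. Of the 500 anti-CD4 node clones, 0 were found in the control-titled tumour and 1 in the anti-PD-L1-titled tumour. The control-titled node had 3 of its 519 clones in the anti-CD4 tumour but 33 (6.36%) in the anti-PD-L1-titled tumour, and 25 of those 33 were also in its own. The anti-PD-L1-titled node had 4 of 526 in the anti-CD4 tumour and 19 (3.61%) in the control-titled tumour, 18 of them also in its own. Clones were thus shared mostly between the tags of 1 cartridge. Of the clones with cells in their own and another tumour, 21 of 25 and 17 of 18 had more cells in their own. The own tumour was itself chosen by clone sharing, so these counts are in part set by that choice. They were the dominant clones: they held 3045 of the 3215 control-titled cells and 2051 of the 2336 anti-PD-L1-titled cells. Without every clone that had a cell in another tumour, the share with tumour cells was 35.7%, 8.06% and 11.5%, and 170 and 285 cells remained in the last 2 mice. The part of tag assignment in this sharing was not tested.

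The share of clones with a tumour cell fell from the top of the node ranking downwards. Among ranks 1 to 50, 56.0%, 43.1% and 54.0% of clones had a tumour cell in the anti-CD4, control-titled and anti-PD-L1-titled mice. For ranks 401 to 500 the shares were 28.0%, 6.93% and 7.89%, and for ranks 501 to 1000 they were 17.7%, 1.99% and 4.69%. Beyond rank 5000 they were 0.538%, 1.19% and 1.62%. The control-titled and anti-PD-L1-titled nodes lost most of their share within the first 100 ranks, to 8.65% and 12.7% at ranks 101 to 200, where the anti-CD4 node still had 35%. A given rank stood for different counts, since ranks 401 to 500 spanned 328 to 395 counts in the anti-CD4 node and 66 to 69 and 62 to 66 in the others. Cells in the other 2 tumours were found for 0%, 25.5% and 14.0% of ranks 1 to 50.

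**Figure D1:**
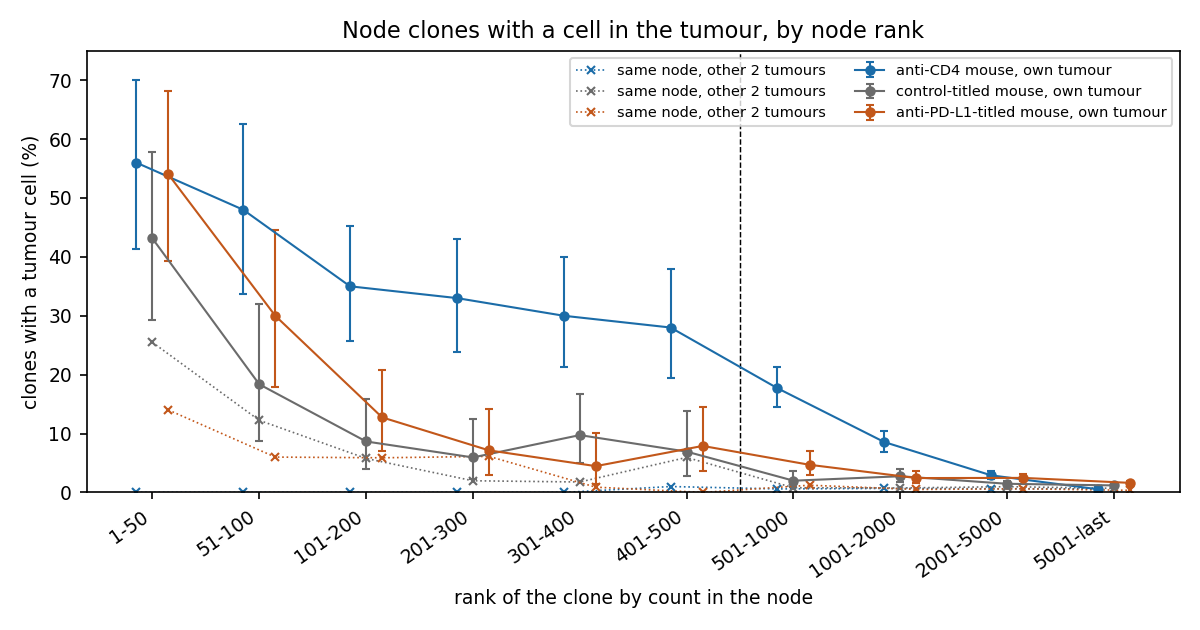
Share of node clones with at least 1 tumour cell (percent, vertical axis) by rank of the clone's count in the node (horizontal axis), with 95% Clopper-Pearson bars for each mouse's own tumour and crosses for the other 2 tumours. All 3 own-tumour lines start between 43.1% and 56.0% at ranks 1 to 50, and the dashed line marks the end of the largest clones.

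Clones with tumour cells accordingly ranked higher in the node. Their median rank was 212.5 against 273.5 for clones without in the anti-CD4 mouse, 105 against 267 in the control-titled mouse and 80.5 against 276.5 in the anti-PD-L1-titled mouse. The median counts were 727 against 573.5, 108.5 against 79 and 121 against 73.5. The difference in median rank had 1 direction in 3 of 3 mice and averaged -140 ranks ± 70.2 (SD, n = 3; exact sign permutation test over mice, two-sided p = 0.25, the smallest that 3 mice allow). The rank distributions overlapped in all 3 mice: the upper quartile of clones with tumour cells lay at rank 349, 311 and 216, beyond the lower quartile of clones without, at 150, 151 and 166.

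Within the tumour the clones were very unequal. The median number of tumour cells per clone was 2, 4 and 4, and 65 of 178, 19 of 64 and 21 of 76 clones had a single cell. The 28, 23 and 24 clones with at least 10 cells held 93.1%, 96.6% and 93.7% of the cells. The biggest clone alone held 39.6%, 46.2% and 19.3% of them. Of each tumour's 10 biggest clones, 6, 6 and 8 were among the largest of the node. Clones at ranks 1 to 100 held 94.9% of these cells in the control-titled mouse, 51.2% in the anti-PD-L1-titled mouse and 13.1% in the anti-CD4 mouse. In the anti-CD4 mouse, the 3 clones with most tumour cells were at ranks 101 (TRBV16, 2132 cells), 392 (TRBV1, 837 cells) and 360 (TRBV19, 484 cells), whereas the rank 2 clone (TRBV20) had 8955 counts and 246 cells. The clone's share of the tumour exceeded its share of the node for 31 of 178, 41 of 64 and 32 of 76 clones.

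**Figure D2:**
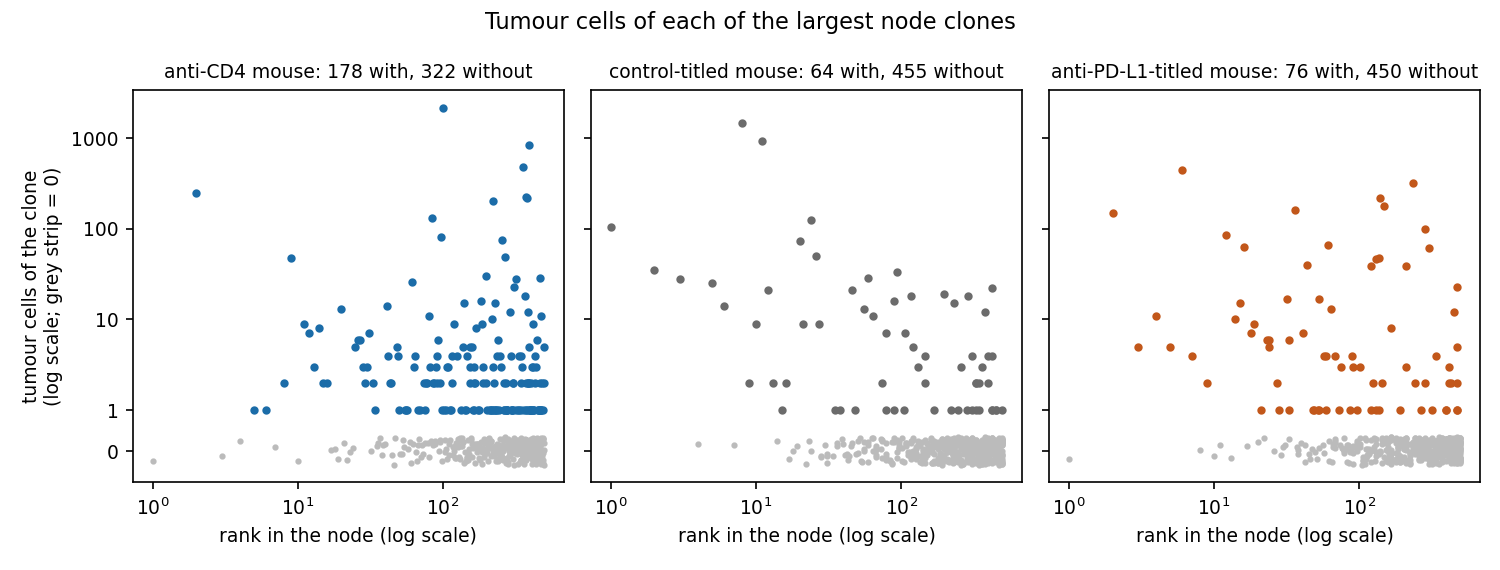
Tumour cells of each of the largest clones (log scale, vertical axis; the grey strip holds clones with 0 cells) against rank in the node (log scale, horizontal axis), 1 panel per mouse. The biggest tumour clone lies at rank 101 in the anti-CD4 mouse, at rank 8 in the control-titled mouse and at rank 6 in the anti-PD-L1-titled mouse.

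V and J segments are the germline pieces of the beta chain, read from the Trb locus on mouse chromosome 6 (coordinates are RefSeq's for GRCm38.p6). TRBV19 and TRBV13-1 made up more, and TRBV12-2 and TRBV15 less, of the clones with tumour cells than of those without in each of the 3 mice, but no segment passed the test. In edgeR's quasi-likelihood test with mouse as a block, 0 of 19 V segments (0%) and 0 of 12 J segments (0%) had an adjusted p under 0.05. At an unadjusted p under 0.05 there was 1 higher and 1 lower V segment and 1 lower J segment. Of all segments tested, 4 V segments (21.1%) and 3 J segments (25%) had 1 direction in 3 mice.

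TRBV19 (chromosome 6, 41178589 to 41179048) was the V segment of 4.49% of clones with tumour cells and 1.86% of those without in the anti-CD4 mouse, 3.12% and 0.220% in the control-titled mouse, and 3.95% and 1.56% in the anti-PD-L1-titled mouse. These shares rest on 8 against 6, 2 against 1 and 3 against 7 clones, and the log2 difference was 1.56 ± 0.69 (SE; edgeR adjusted p = 0.29). TRBV12-2 (41118864 to 41119364) was used by 1.69% against 6.21%, 4.69% against 7.91% and 3.95% against 10.9%, a log2 difference of -1.39 ± 0.54 (SE; edgeR adjusted p = 0.26). For comparison, TRBV12-2 made up 8.04%, 7.52% and 8.21% of the node clones listed below the largest. TRBV15 (41141211 to 41141658) was used by 1.69% against 3.11%, 6.25% against 9.23% and 3.95% against 8.44%. TRBV13-1 (41116036 to 41116468) was used by 6.18% against 3.42%, 4.69% against 3.96% and 9.21% against 4.67%. Below the largest clones, TRBV15 made up 4.43%, 4.54% and 3.72% and TRBV13-1 7.08%, 6.04% and 6.52%. The log2 differences of the last 2 were -0.82 and 0.76.

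Among J segments TRBJ2-5 (41543453 to 41543501) was rarer in the clones with tumour cells, at 7.30% against 12.1%, 7.81% against 11.2% and 5.26% against 11.8% (log2 difference -0.78 ± 0.30 SE; edgeR adjusted p = 0.18). It was nevertheless the J segment of the biggest tumour clone of both the anti-CD4 and the control-titled mouse. TRBJ2-2 (41542957 to 41543007) was used by 7.30% against 5.90%, 6.25% against 2.20% and 6.58% against 5.11%. TRBJ2-1 (41542754 to 41542803) was used by 16.9% against 17.7%, 12.5% against 16.0% and 14.5% against 20.2%, and its log2 difference turned from -0.24 to 0.05 when each clone counted its node reads.

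**Figure D3:**
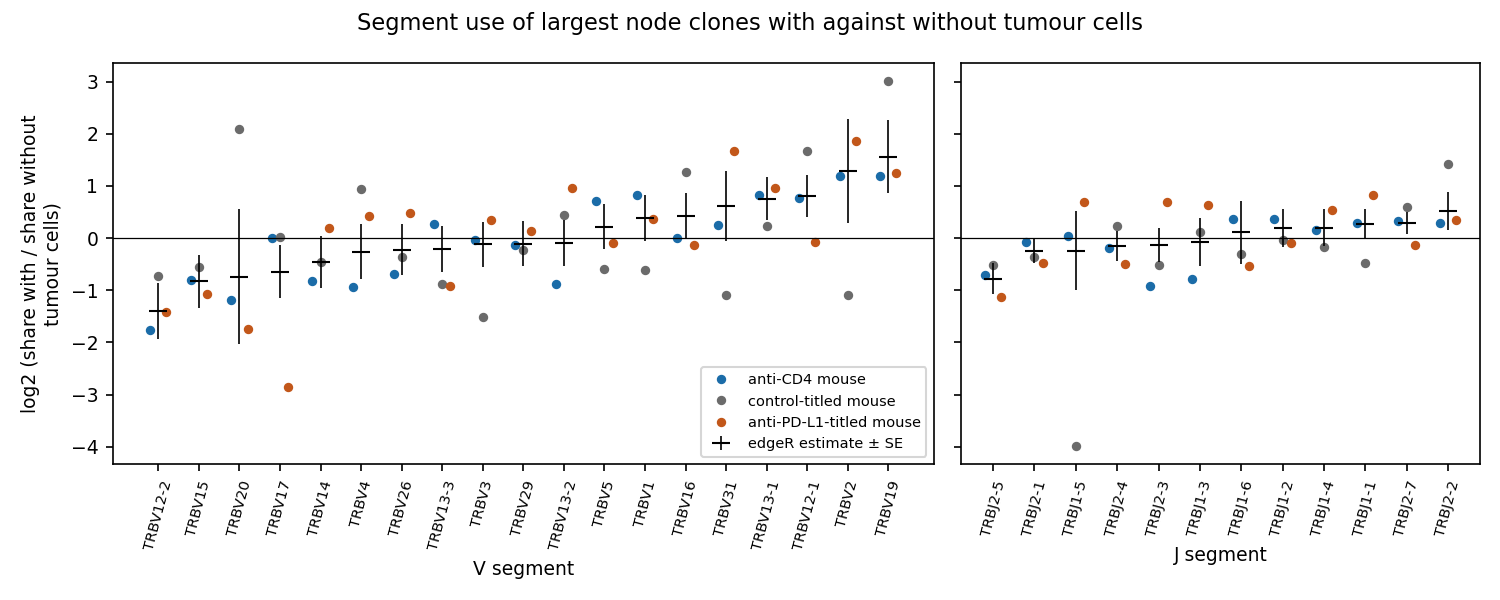
Log2 ratio of segment use in the largest clones with against without tumour cells (vertical axis) for each V and J segment tested, with a point per mouse and a black line for the edgeR estimate ± SE. TRBV19 lies at the high end (1.56) and TRBV12-2 at the low end (-1.39), with no adjusted p under 0.05.

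The mean CDR3 length was 42.2 nt in clones with tumour cells against 41.9 nt without in the anti-CD4 mouse, 40.8 against 41.4 nt in the control-titled mouse and 40.9 against 41.2 nt in the anti-PD-L1-titled mouse, and the median was 42 nt in every class. The mean difference was -0.17 nt ± 0.47 (SD, n = 3; exact sign permutation, two-sided p = 0.75), and the SD over the clones of a class was 4.16 to 4.89 nt. The bases between V and J numbered 10.0 against 9.90, 8.78 against 9.39 and 8.61 against 8.83 on average (mean difference -0.24 ± 0.36 SD, n = 3; exact sign permutation, two-sided p = 0.5). A D segment was assigned in 78.7% against 76.1%, 65.6% against 75.2% and 67.1% against 71.8% of clones.

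Convergent clones, whose V, J and CDR3 amino acids were also coded by another nucleotide sequence in the same node, made up 12.9% against 10.9%, 9.38% against 5.71% and 5.26% against 6.44%. The mean difference was 1.51 percentage points ± 2.47 (SD, n = 3; exact sign permutation, two-sided p = 0.5). CDR3 amino acids also listed in another node were found for 21.3% against 20.2%, 45.3% against 31.0% and 23.7% against 33.3% (mean difference 1.95 points ± 12 SD, n = 3; exact sign permutation, two-sided p = 0.75). The control-titled and anti-PD-L1-titled mice differed in opposite directions on this measure. With 3 mice, none of these comparisons could reach a p under 0.25.

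For the state of the tumour cells, 3 classes were compared: cells of the largest clones (5385, 3215 and 2336 cells), cells of clones listed lower in the node (5025, 498 and 921) and cells of clones not listed there (1894, 2699 and 8053). A state was the share of cells with at least 1 count of the named genes. The states were not exclusive, and a cell with Tcf7, Pdcd1 and Havcr2 counted in both the precursor and the terminal pair. Pmel-1 spleen cells, transgenic T cells of 1 receptor mixed in after the sort, served for scale (788 cells). They were taken from the anti-CD4 cartridge only. Setting the control-titled or anti-PD-L1-titled cells beside them therefore crosses cartridges. Median counts per cell were 22269, 17857 and 32901.5 in the largest clones, 21378, 19485 and 24404 in the lower clones, 16619, 16661 and 11215 in unlisted clones and 11116 in Pmel-1 cells. Because depth moved with class, every cell was also thinned to 4000 counts, which left out 0 cells. All other settings of the state shares, such as equal weight per clone, used unthinned counts.

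Cells with both Havcr2 and Pdcd1, the terminal pair, made up 56.0% of the cells of the largest clones in the anti-CD4 tumour (54.6 to 57.3%), 6.87% in the control-titled tumour (6.02 to 7.80%) and 41.4% in the anti-PD-L1-titled tumour (39.4 to 43.4%). In lower clones they made up 50.3%, 6.83% and 18.5%, and in unlisted clones 33.2%, 8.74% and 4.16%. After thinning, the largest clones stood at 50.5%, 5.19% and 36.3%, lower clones at 45.2%, 6.22% and 15.6% and unlisted clones at 30.7%, 7.26% and 3.37%. Pmel-1 cells stood at 5.58% (4.09 to 7.42%), and the pooled interval of the largest control-titled clones overlapped theirs. Single clones there lay above that level: the rank 1 clone stood at 32.7% of 104 cells (23.8 to 42.6%) and the rank 46 clone at 52.4% of 21 cells (29.8 to 74.3%), whereas the biggest, of rank 8 and 11, stood at 5.66% of 1485 and 3.05% of 919 cells. The largest clones were above the lower clones by 5.68, 0.05 and 22.9 percentage points (mean 9.56 ± 11.9 SD, n = 3; exact sign permutation, two-sided p = 0.25, the smallest possible). The direction was lost in the control-titled mouse after thinning (-1.03 points) and for clones of at least 2 tumour cells (-0.71), and in the anti-CD4 mouse with equal weight per clone (-2.61). In the anti-PD-L1-titled mouse the level rested on clones that also had a cell in another tumour: without them it was 13.7% of 285 cells in the largest clones and 5.17% of 406 cells in the lower clones.

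Cells with neither Pdcd1 nor Havcr2 made up 6.35%, 59.3% and 13.1% of the cells of the largest clones, 7.72%, 58.8% and 38.0% in lower clones and 33.2%, 65.4% and 81.3% in unlisted clones. After thinning the largest clones stood at 7.76%, 64.1% and 15.4%. The largest clones were below the unlisted clones in 3 of 3 mice (mean -33.7 points ± 31.6 SD, n = 3; exact sign permutation, two-sided p = 0.25). The unlisted clones of the anti-PD-L1-titled tumour lay near Pmel-1 cells (76.4%), and 96.8% of these clones were single cells. When only clones of at least 2 tumour cells were counted, unlisted clones stood at 9.44%, 49.5% and 37.1%, and their Havcr2 and Pdcd1 share at 53.9%, 17.2% and 23.2%.

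Cells with both Tcf7 and Pdcd1, the precursor pair, made up 9.97%, 18.9% and 44.5% of the largest clones, 13.2%, 24.1% and 38.3% of lower clones and 16.7%, 20.2% and 11.9% of unlisted clones. In the anti-PD-L1-titled mouse the largest clones were the highest class, whereas in the other 2 mice they were the lowest, although in the control-titled mouse their interval (17.6 to 20.3%) overlapped that of unlisted clones (18.7 to 21.7%). After thinning the largest clones stood at 7.69%, 14.4% and 36.4% and Pmel-1 cells at 14.6%. The thinned control-titled share over all cells was thus close to that of Pmel-1 cells, which came from the other cartridge. The anti-CD4 share lay below that of Pmel-1 cells. Averaged over mice, the largest clones differed from the lower clones by -0.74 points ± 6.08 (SD, n = 3; exact sign permutation, two-sided p = 1). These directions depended on the weight of single clones. With equal weight per clone, the largest clones were above unlisted clones in each mouse, by 12.5, 12.2 and 34.6 points (mean 19.8), and differed from lower clones by -1.52, 0.76 and 22.6 points. Depth per cell was not evened out in that setting. Without clones that had a cell in another tumour, the control-titled difference turned to 6.96 points against lower and 13.0 points against unlisted clones.

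Mki67, which is made in dividing cells, was read in 25.8%, 5.66% and 22.2% of the cells of the largest clones, in 23.9%, 10.2% and 18.1% of those of lower clones and in 18.1%, 8.97% and 4.33% of those of unlisted clones, with 5.71% in Pmel-1 cells. In the control-titled mouse the largest clones were instead the lowest class over all cells, at the Pmel-1 level. With equal weight per clone they were the highest class there (9.71% against 8.37% in lower and 5.22% in unlisted clones), and without clones that had a cell in another tumour they stood at 8.82% against 9.95% and 5.78%. Klrg1, a receptor of short-lived effector cells, was read in 16.1%, 21.8% and 4.11% of the largest clones, 12.6%, 16.1% and 3.8% of lower clones and 7.18%, 12.7% and 2.02% of unlisted clones, with 2.16% in Pmel-1 cells. It was read in more cells of the largest clones than of lower and of unlisted clones in 3 of 3 mice, although the intervals of the largest (3.34 to 5.0%) and lower clones (2.66 to 5.25%) overlapped in the anti-PD-L1-titled mouse. The mean differences were 3.18 ± 2.73 and 6.71 ± 4.0 points (SD, n = 3; exact sign permutation, two-sided p = 0.25 for both). The lead over lower clones turned to -0.85 points when each clone weighed the same and to -1.74 without clones that had a cell in another tumour. Without the biggest clone of each class and mouse it was 1.14, -0.0013 and -0.37 points (mean 0.26). The lead over unlisted clones also lost its direction, at 8.83, -2.59 and -0.34 points without clones that had a cell in another tumour (mean 1.97) and at 6.07, -1.23 and -3.65 points for clones of at least 2 tumour cells (mean 0.40).

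**Figure D4:**
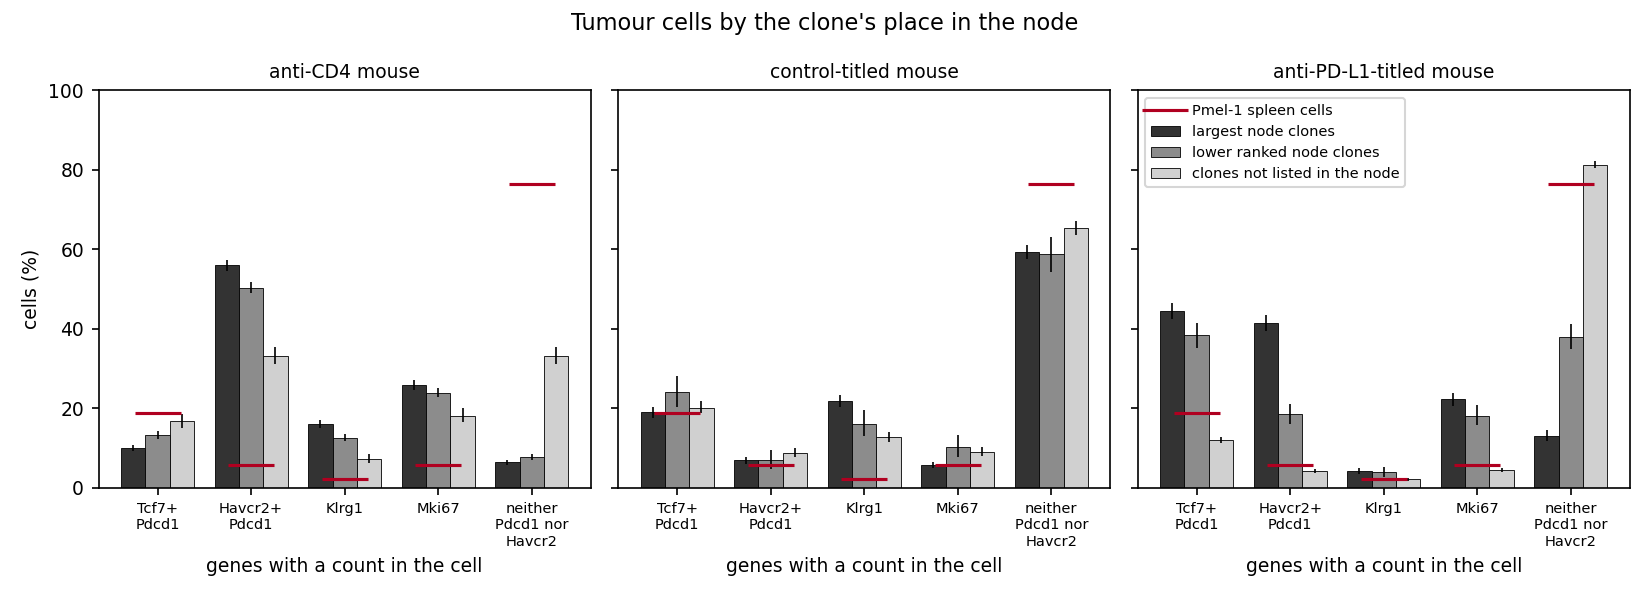
Share of tumour cells (percent, vertical axis) with a count of the genes named on the horizontal axis, for the largest, lower and unlisted clones of each mouse, with 95% Clopper-Pearson bars. The red mark in every panel is for the Pmel-1 cells of the anti-CD4 cartridge. The Havcr2 and Pdcd1 bars of the largest clones reach 56.0% and 41.4% in the anti-CD4 and anti-PD-L1-titled panels and 6.87% in the control-titled panel.

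The largest clones also differed among themselves. Over clones with at least 10 tumour cells, the Havcr2 and Pdcd1 share ran from 12.5 to 72.2% (median 39.8%, 28 clones) in the anti-CD4 mouse, from 0 to 52.4% (median 7.69%, 23 clones) in the control-titled mouse and from 0 to 58.8% (median 28.1%, 24 clones) in the anti-PD-L1-titled mouse. In the anti-CD4 mouse the rank 101 clone (TRBV16) stood at 62.6% and the rank 392 clone (TRBV1) at 72.2%, with 5.68% and 3.35% of their cells in the precursor pair. A pair of smaller clones there were instead mainly Klrg1 positive, at 93.8% of 16 cells (TRBV13-3, rank 183) and 84.6% of 26 cells (TRBV14, rank 61).

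In the control-titled mouse the rank 8 clone (TRBV12-1) had Klrg1 in 28.3% of its cells and neither Pdcd1 nor Havcr2 in 61.8%, whereas the rank 1 clone (TRBV16, 104 cells) had Klrg1 in 3.85% and the precursor pair in 37.5%. In the anti-PD-L1-titled mouse the precursor share ran from 20.8 to 84.6% (median 47.7%). The rank 233 clone (TRBV19) had the terminal pair in 58.8% and the precursor pair in 43.0% of its cells. The rank 2 clone (TRBV26, 149 cells) had them in 29.5% and 72.5%. In both clones some cells had both pairs, so these shares overlap. The class shares above count cells, and so weigh each clone by its size.

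Counts of each panel gene were summed per class and mouse and tested across all genes, with mouse as a block. Between the largest and the lower clones, 0 of 1152 genes passed (0% higher, 0% lower; edgeR), with 22 higher and 12 lower at an unadjusted p under 0.05. DESeq2 called 5. Between the largest and the unlisted clones 0 of 1152 genes passed (0% higher, 0% lower; edgeR), with 50 higher and 64 lower at an unadjusted p under 0.05. In the first comparison 196 genes were higher (17%) and 100 lower (8.68%) in 3 of 3 mice, and in the second 221 were higher (19.2%) and 197 lower (17.1%). Both comparisons share the sums of the largest clones. With the size factors of DESeq2 in place of TMM, the median log2 difference of all genes in the first comparison moved from 0.11 to -0.01. Levels below are TMM-scaled CPM, the count of a gene relative to the class total.

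Il7r, the interleukin-7 receptor that keeps naive and memory T cells alive, stood at 593, 1015 and 3702 CPM in the largest, lower and unlisted clones of the anti-CD4 mouse, at 3029, 4820 and 5814 CPM in the control-titled mouse and at 1899, 3339 and 11476 CPM in the anti-PD-L1-titled mouse. The largest clones were the lowest class in each mouse, with a log2 difference of -0.74 ± 0.36 (SE) from lower and -2.13 ± 0.38 from unlisted clones (edgeR adjusted p = 1.00 and 0.12). Tcf7, the gene of TCF-1, stood at 247, 365 and 1875 CPM, 1992, 2113 and 2851 CPM and 1515, 2493 and 4506 CPM, again lowest in the largest clones of each mouse (log2 difference from unlisted clones -1.74 ± 0.47 SE; edgeR adjusted p = 0.27). Ccr7, a receptor that guides T cells into lymph nodes, stood at 1636, 1904 and 5134 CPM, 4199, 4202 and 5960 CPM and 6888, 6549 and 10144 CPM. It was below unlisted clones in 3 of 3 mice (log2 difference -0.92 ± 0.25 SE; edgeR adjusted p = 0.25) and had no single direction against lower clones. Lef1, a partner of TCF-1, was likewise below unlisted clones in 3 of 3 mice, with a log2 difference of -2.02 ± 0.58 (SE; edgeR adjusted p = 0.27) against a median of 0.00 over all genes tested.

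Other genes with wide differences from unlisted clones and 1 direction in 3 mice were also lower in the largest clones. They were Il6ra (interleukin-6 receptor, log2 difference -3.11), Cxcr5 (a homing receptor for B cell follicles, -2.52), Pik3ip1 (an inhibitor of PI3 kinase, -2.35), Tlr1 (-2.03), Itgae (-1.88), Pou2af1 (-1.86), Myc (-1.78) and Txk (a kinase of the T cell receptor pathway, -1.77). Their edgeR adjusted p lay between 0.090 and 0.45. Il6ra turned to 0.49 when only clones of at least 2 tumour cells were counted. Against lower clones, genes with wide differences and 1 direction in 3 mice were Cd22 (-1.45), Il6ra (-1.20), Cxcr5 (-1.03), Il2ra (0.86), Prdm1 (0.83), Tnfrsf25 (0.76), Il7r, Pik3ip1 (-0.74) and Nt5e (-0.72), all with an edgeR adjusted p of 1.00. Il2ra is the high-affinity interleukin-2 receptor chain and Prdm1 the effector regulator Blimp-1. Prdm1 turned to -1.31 with 1 cell per clone and to -0.05 without clones that had a cell in another tumour.

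Checkpoint receptor genes were not uniformly higher. Of 8 tested, 2 were higher and 0 lower in the largest than in lower clones in 3 mice, and 2 were higher and 1 lower against unlisted clones (median log2 difference 0.11 and 0.62). Pdcd1 stood at 14651, 14792 and 11029 CPM in the anti-CD4 mouse, 2561, 2939 and 2813 CPM in the control-titled mouse and 9512, 6857 and 2574 CPM in the anti-PD-L1-titled mouse. Only in the last were the largest clones the highest class, a difference between mice that was not tested. Havcr2 stood at 3183, 2830 and 2651 CPM, 746, 678 and 764 CPM and 1930, 950 and 430 CPM. Lag3, another inhibitory receptor, was higher in the largest than in lower clones in each mouse, at 12943 against 12074, 2481 against 2089 and 9494 against 6653 CPM (log2 difference 0.31 ± 0.38 SE; edgeR adjusted p = 1.00).

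Of 9 cytotoxic genes, 3 were higher and 0 lower against lower clones in 3 mice, and 3 higher and 1 lower against unlisted clones. Gzmb, the protease granzyme B, stood at 41508, 39258 and 42765 CPM, 9163, 5042 and 5292 CPM and 9091, 6363 and 3787 CPM, with a log2 difference of 0.50 ± 0.25 (SE) from lower clones (edgeR adjusted p = 1.00). Nkg7, a granule protein, was at 58831, 58809 and 49682 CPM, 21496, 17278 and 15387 CPM and 23666, 19678 and 14098 CPM. Among 8 cytokine genes, 3 were higher and 0 lower against lower clones in 3 mice. Ccl4, a chemokine that draws T cells, was one of them, at 2067 against 1697, 191 against 117 and 349 against 268 CPM. Cxcr6, a chemokine receptor of resident T cells, was at 7704, 7346 and 5298 CPM, 2713, 1639 and 1487 CPM and 2966, 1719 and 1058 CPM, with a log2 difference of 0.54 ± 0.21 (SE) from lower and 0.97 ± 0.21 from unlisted clones (edgeR adjusted p = 1.00 and 0.17).

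Of 6 proliferation genes, 0 were of 1 direction in 3 mice against lower clones. Of 7 precursor genes 3 were higher and 2 lower, of 9 interferon response genes 1 was higher and 2 lower, of 8 receptor signal genes 0 were higher and 1 lower, of 4 residency genes 2 were higher and of 3 short-lived effector genes 1 was higher. Against unlisted clones the same lists had 0 higher and 1 lower, 1 and 2, 3 and 0, 0 and 3, 2 and 1, and 2 and 0. Over all genes tested, 17% were higher and 8.68% lower against lower clones in 3 mice, and 19.2% and 17.1% against unlisted clones.

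**Figure D5:**
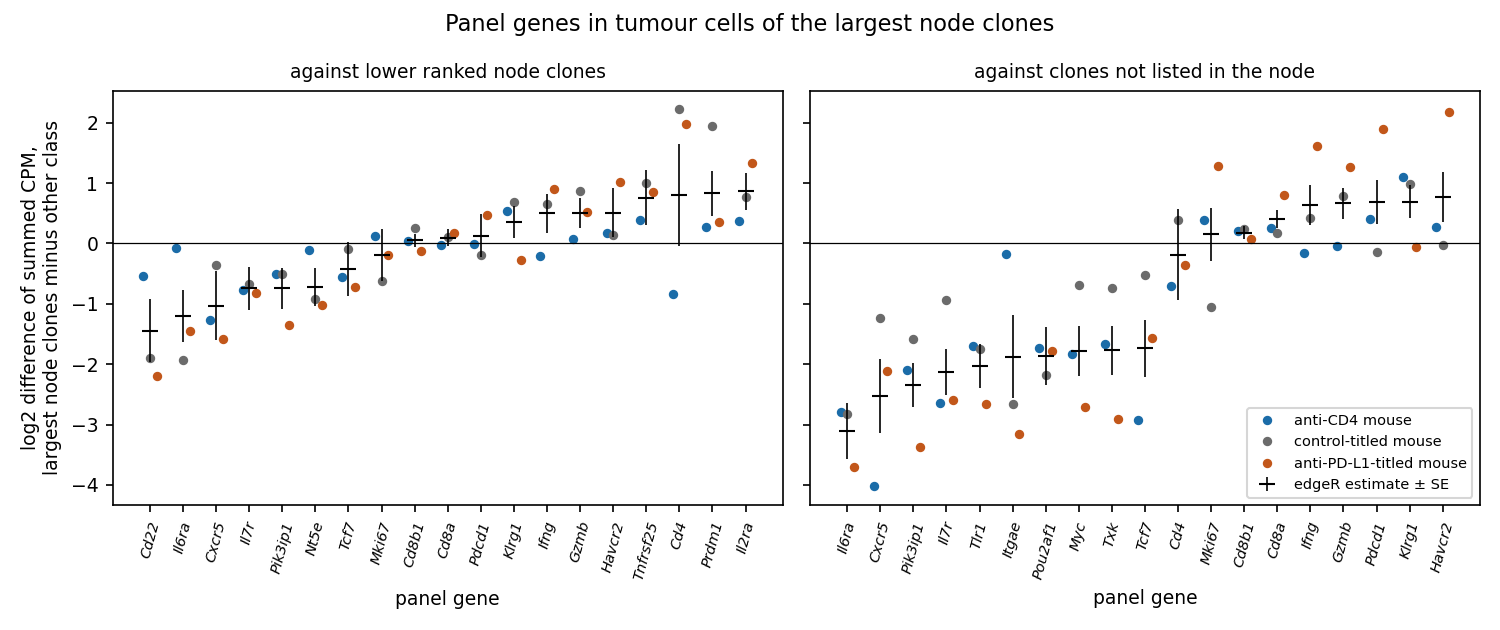
Log2 difference of summed CPM (vertical axis) between the largest clones and lower clones (left) or unlisted clones (right) for named panel genes, with a point per mouse and a black line for the edgeR estimate ± SE. Il6ra has the lowest estimate plotted on the right (-3.11), with all 3 mice below 0.

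The number of genes called against unlisted clones changed with the depth per cell, the weight given to each clone, the tool and the clones included. With each cell thinned to 4000 counts edgeR called 31 of 605 genes, 4 higher (0.661%) and 27 lower (4.46%). With 1 randomly drawn cell per clone it called 34 of 463, 14 higher (3.02%) and 20 lower (4.32%). DESeq2 called 61 of 848, 15 higher (1.77%) and 46 lower (5.42%), where 848 of its 2124 genes received an adjusted p. All 3 sets held 7 genes: Casp1 higher, and Ighm, Ikbkb, Il4ra, Il7r, Pik3ip1 and Txk lower in the largest clones. They are named after their values were seen. Casp1, the inflammasome protease caspase-1, stood at 2489 against 1260, 1818 against 842 and 1371 against 479 CPM (log2 difference 1.19 ± 0.19 SE; edgeR adjusted p = 0.090). Il4ra, the interleukin-4 receptor, stood at 2014 against 5913, 2701 against 4534 and 2926 against 8973 CPM. Among clones of at least 2 tumour cells edgeR called 0 of 877 genes, with 22 higher and 10 lower at an unadjusted p under 0.05.

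Markers of other cell types differed between classes, not always in the same direction in the 3 mice. In the largest, lower and unlisted clones of the anti-CD4 mouse, the 6 macrophage genes tested summed to 3142, 2754 and 216 CPM. The sums were 67.2, 195 and 132 CPM in the control-titled mouse and 904, 48.1 and 183 CPM in the anti-PD-L1-titled mouse. Lyz2 was read in 5.2%, 5.6% and 3.9% of cells of these classes in the anti-CD4 mouse, and in 3.7% of Pmel-1 cells. Its shares were 0.56%, 1.2% and 0.41% in the control-titled mouse and 0.81%, 0.65% and 0.58% in the anti-PD-L1-titled mouse. The 3 NK cell genes summed to 25.2, 28.3 and 943 CPM, 51.03, 99.0 and 400.7 CPM and 46.6, 138 and 713 CPM. Nearly all of the last sums was Klra7, a receptor that CD8+ T cells can also carry. Klra7 was read in 0.6%, 2.0% and 3.7% of cells of the largest clones and 12.1%, 8.7% and 10.3% of cells of unlisted clones. Of the 3 NK cell genes, 2 were lower and 1 was higher than in unlisted clones in 3 of 3 mice. The higher one, Klre1, stood at 17.4 against 14.8, 18.4 against 14.4 and 16.1 against 8.15 CPM. After thinning, Klre1 was read in 5.88% against 5.93% of cells in the control-titled mouse. The 4 B cell genes summed to 744, 1185 and 2500 CPM, 818, 811 and 1432 CPM and 1176, 2614 and 2522 CPM, most of it Ighm, while Cd79a stayed at or under 2.68 CPM. The 3 CD4 and regulatory T cell genes summed to 899, 738 and 1010 CPM, 352, 218 and 184 CPM and 458, 318 and 146 CPM. The 1 tested gamma delta T cell gene, Trdc, stood at 2.73, 12.3 and 102 CPM, 7.86, 2.07 and 51.3 CPM and 48.5, 14.5 and 101 CPM. None of the 4 melanoma genes was on the panel. The part of these markers in the gene differences was not tested.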

How the data were processed

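Beta chains of CD8+ CD44high node cells (3 samples) and single tumour cells (2 cartridges, 3 tumours) were analysed. The submitters' processing notes list Bowtie2 2.4.2, cutadapt 3.2 and 3.4, R 3.6.3 and GRCm38; which receptor caller was used is not given in the sources used here. Node tables, as deposited by the authors, give a count per clone, none under 10, and its fraction of the listed total. The deposited panel matrices give whole counts per gene and cell, at least 4379 per cell used, read here as reads; whether they are molecules is not stated. The deposited receptor tables give estimated counts of the leading chains per cell and, per the file headers, a fraction of that chain's reads. The number of unmapped columns of per-sample values was 0.

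Tags 5 and 6 were joined as the anti-CD4 mouse, and tags 1 and 2 were matched to nodes by clone sharing. Left out were 700 cells that the deposited tables mark as doublets, 74 untagged cells and 10 tumour-tagged cells with the Pmel-1 chain. The 2124 genes on both panels, 100% and 99.98% of the counts, were used. Sums per class and mouse (9) and clones per segment (6 columns) were fitted with edgeR 4.0.16 (R 4.3.3, limma 3.58.1) as a quasi-likelihood test: TMM, filterByExpr with a minimum count of 10 and mouse as block for genes, and no scaling with at least 10 clones for segments; p-values were Benjamini-Hochberg adjusted at 0.05. Log2 values of single mice use a prior count of 2 for genes and a smaller one, scaled to the class size, for segments. The fits were tested on simulated data. DESeq2 1.42.0 was an alternative. Scipy 1.17.1, pandas 2.3.3 and numpy 2.4.6 under Python 3.11.15 gave shares, 95% Clopper-Pearson intervals and exact permutation tests; an upper limit for 0 cells is 3 counts of the total. P-values measure the spread between 3 mice, 1 per treatment. Coordinates are RefSeq's on GRCm38.p6, matched by symbol.

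Named were: per gene contrast the 10 widest differences with 1 direction in 3 mice and at least 10 CPM, 11 preset genes and up to 4 abundant members of each list; up to 4 segments with 1 direction; and per node 3 clones each of highest count with and without tumour cells and of most tumour cells. The clones, lists and tests were chosen with earlier results of these data known. Some of the genes so named are not reported here.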

Additional observations from a re-analysis of the deposited data

Results flagged for a closer look

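The precursor pair (Tcf7 and Pdcd1) differed between classes in opposite directions among the mice when cells were counted. The largest clones exceeded lower clones by 6.19 percentage points in the anti-PD-L1-titled mouse, with class intervals that did not overlap, and differed from them by -3.26 points in the anti-CD4 mouse and -5.15 points in the control-titled mouse. Against unlisted clones the difference was 32.6 points in the anti-PD-L1-titled mouse and -6.76 points in the anti-CD4 mouse. With equal weight per clone the last value turned to 12.5 points and the control-titled difference from lower clones to 0.76, and without clones of another tumour the latter was 6.96. For Mki67 the largest clones exceeded unlisted clones by 7.67 points in the anti-CD4 mouse and 17.8 points in the anti-PD-L1-titled mouse, and differed by -3.31 points in the control-titled mouse. That value turned to 4.48 points with equal weight per clone (13.1 and 10.1 points in the anti-CD4 and anti-PD-L1-titled mice) and to 3.05 without clones of another tumour (7.56 and 9.83 points). Each value comes from 1 mouse, and the differences between mice were not tested.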

How the results depend on the processing

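The higher node rank of clones with tumour cells kept its direction under every alternative run, and 0 V and 0 J segments were called under each; mean differences in rank ran from -179 to -111.5 when 1 mouse was left out. The share with tumour cells in the anti-CD4, control-titled and anti-PD-L1-titled mice became 42.0%, 16.9% and 23.6% for the first 250 clones, 26.6%, 7.25% and 9.74% for the first 1000, and 22.6%, 8.67% and 10.5% with at least 2 tumour cells. It was 26.2% with tag 5 alone and, in the anti-PD-L1-titled mouse, 18.8% with amino acid clones. Leaving out clones with a cell in another tumour, added after seeing the data, gave 8.06% and 11.5%. CDR3 length differences ran from -0.42 to 0.054 nt when 1 mouse was left out and came to 0.016 without clones of another tumour. With the first 250 clones the convergent difference was -0.016 points (3.44 with the first 1000 and 5.12 with amino acid clones, each with 1 direction in 3 mice), that of CDR3s in another node -2.08 (-4.24 to 7.74 without 1 mouse) and that of bases between V and J 0.17. With amino acid clones, a convergent clone pools several nucleotide sequences for its count and its tumour match, so that direction is in part built in. TRBJ2-1 turned to 0.053 by node reads.

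Genes called against lower clones were 0 in all but DESeq2 (5). Against unlisted clones they were 61 with DESeq2, 34 with 1 cell per clone, 31 after thinning, 4 without a filter and with the first 1000 clones, 2 without the mouse block and 2 without the biggest clone of each class. Without any 1 mouse the count was 0. Classes were paired within each mouse, as the block of the fits and as within-mouse differences in the permutation tests. Between treatments no pairing was possible, with 1 mouse each. The causes of these moves were not tested.

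Against lower clones, log2 differences turned in sign for Prdm1 (-1.31), Tnfrsf25 (-0.31), Gzmb (-0.24) and Klrg1 (-0.76) with 1 cell per clone, and for Prdm1 (-0.054), Cd4 (-0.68), Gzmb (-0.25), Ifng (-0.10) and Klrg1 (-0.79) without clones of another tumour. Without the biggest clones this held for Cd8b1 (-0.024), Cd4 (-0.00098), Klrg1 (-0.057) and Mki67 (0.15). Cd8b1 was -0.045 with DESeq2, -0.068 with its size factors (Cd8a -0.022), -0.015 with 6 sums, -0.017 after thinning and -0.031 to 0.13 without 1 mouse. Cd4 was -0.54 without the block and -0.43 after thinning. Pdcd1 was -0.0064 with clones of at least 2 cells and -0.11 to 0.28 without 1 mouse.

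Against unlisted clones, restricting to clones of at least 2 cells turned Il6ra (0.49), Pdcd1 (-0.062), Havcr2 (-0.070), Gzmb (-0.11), Ifng (-0.088), Klrg1 (-0.060) and Mki67 (-0.53). Without 1 mouse, Mki67 ran from -0.34 to 0.80 and Cd4 from -0.50 to 0.079.

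The precursor difference from lower clones ran from -4.21 to 1.47 points when 1 mouse was left out (0.52 without the anti-CD4 mouse); it was 0.68 without the biggest clones, 9.81 without clones of another tumour and 7.27 with equal weight per clone. From unlisted clones it ran from -3.99 to 15.7. The Mki67 difference from lower clones ran from -1.35 to 2.96 (-0.27 without the anti-CD4 mouse) and was -1.07 for clones of at least 2 cells, as it was (-1.07) from unlisted clones. The Klrg1 difference from lower clones was -1.74 without clones of another tumour and -0.85 with equal weight. Clones under 10 node counts were not listed, so an unlisted clone may be present in the node below that count.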

Other observations

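TRBV19 clones were followed further after the segment comparison had been seen, as a description. Among the cells of the largest clones, TRBV19 was carried by 940 of 5385 (17.5%) in the anti-CD4 tumour, 5 of 3215 (0.156%) in the control-titled tumour and 523 of 2336 (22.4%) in the anti-PD-L1-titled tumour. In lower clones the shares were 24.1%, 3.82% and 32.2%, and in unlisted clones 23.0%, 10.4% and 7.12%. Counted by clones with tumour cells, TRBV19 made up 4.49%, 3.12% and 3.95% of the largest clones. It made up 9.30%, 3.66% and 6.56% of lower clones and 10.2%, 7.24% and 7.14% of unlisted clones. Of the 75 largest clones with at least 10 tumour cells, 6 used TRBV19, 3 in the anti-CD4 mouse and 3 in the anti-PD-L1-titled mouse. The commonest alpha chain of each of these 6 clones used TRAJ30, with a V segment of the TRAV6 or TRAV14 family, and they had between 39 and 484 tumour cells. In the anti-CD4 mouse that chain was carried by 273 of 465, 119 of 218 and 212 of 219 cells with an alpha chain. In the anti-PD-L1-titled mouse it was carried by 298 of 306, 134 of 149 and 37 of 37. Of the other 69 clones, 7 had TRAJ30 in their commonest alpha chain. The 6 TRBV19 clones had 6 different beta chains. The remaining TRBV19 clones among the largest had 1 to 5 tumour cells, and none had TRAJ30 in its commonest alpha chain. No test was made.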
